A study of Mus musculus with 18 samples.

Results

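The genes described here were the ketone body metabolism genes Bdh1, Bdh2, Acat1, Oxct1 and Aacs, taken by their symbols from the liver expression table, which makes them 5 of 37303 genes. RNA-seq was performed on liver of C57BL/6J mice that were wild type (WT) or carried a homozygous whole-body deletion of Gcn2 (Gcn2-/-) or of Atf4 (Atf4-/-), and each genotype received 8 daily intraperitoneal injections of PBS excipient or of asparaginase (ASNase) at 3 IU per gram body weight. GCN2 is a kinase that senses amino acid shortage, ATF4 is the transcription factor translated downstream of it, and ASNase is a leukemia drug that depletes circulating asparagine and glutamine. There were 6 groups of 3 mice aged 8 to 16 weeks by the labels, with livers taken 7.5 h after an injection, although the growth protocol in the same labels gives at most 12 weeks and the methods give a slightly later collection. Males made up 1 of 3 mice in WT PBS, Gcn2-/- PBS and Gcn2-/- ASNase and 2 of 3 in WT ASNase, Atf4-/- PBS and Atf4-/- ASNase, so sex was not balanced between the groups compared. Expression was given as 1 FPKM value per group (sequenced fragments scaled to transcript length and library size), made by Cuffdiff from all 3 libraries of that group, with the lower and upper bound of an interval. No values of single libraries were used, so no standard deviation and no p-value could be given, and the depth behind each value is unknown from the table.

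Ketone bodies are made in liver mitochondria from acetyl-CoA when fatty acid oxidation outruns the citric acid cycle. Acat1, the mitochondrial acetoacetyl-CoA thiolase, joins acetyl-CoA units at the start of the pathway, and Bdh1, an inner mitochondrial membrane dehydrogenase, reduces acetoacetate to beta-hydroxybutyrate for export. Oxct1 is the CoA transferase that lets muscle, heart, brain and kidney burn ketone bodies, and hepatocytes are known to hold little of it. Aacs activates acetoacetate in the cytosol for sterol and fatty acid synthesis. Bdh2 is a cytosolic short-chain dehydrogenase that has been linked to both beta-hydroxybutyrate oxidation and a mammalian siderophore.

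All 5 genes are protein coding. By the GENCODE M21 annotation of GRCm38, the mm10 build of the table, Acat1 lies on the minus strand at chr9:53580522-53610382, and the other genes lie on the plus strand, Bdh1 at chr16:31422280-31458901, Bdh2 at chr3:135281221-135304426, Aacs at chr5:125475814-125517410 and Oxct1 at chr15:4026383-4155344. The table placed the start of Oxct1 further upstream, at 4021686. A gene's FPKM covers all of its transcripts, so the 4 coding transcripts annotated for Bdh1 were not separated.

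Groups were compared on the scale log2(FPKM + 0.1), on which changes of weakly expressed genes come out too small. A gene was called different between 2 groups when its FPKM was over 3 in either group, the log2 difference was over 1.5 and the Cuffdiff intervals did not overlap. All 5 genes had an accepted estimate above 0 in every group. Oxct1 was under the FPKM minimum on both sides of 2 comparisons, Gcn2-/- ASNase with Gcn2-/- PBS and Atf4-/- ASNase with Gcn2-/- ASNase, and could not be called there.

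Regarding the data as a whole, the FPKM values of the targeted genes give a limited check of the labels. The paper itself reports from read density plots that an exon of Gcn2 was missing in Gcn2-/- mice and Atf4 in Atf4-/- mice. Eif2ak4, the gene of GCN2, read between 2.19 and 3.14 FPKM in the 6 groups with overlapping intervals, and its value covers exons outside any deleted part. Atf4 read 32.3 and 29.3 FPKM in Atf4-/- PBS and Atf4-/- ASNase and between 50.4 and 68.1 FPKM in the other groups, with overlapping intervals. Of 12 hepatocyte markers, 10 to 11 had an accepted estimate in each group and all of these were well expressed, the lowest being Fabp1 at 46.6 FPKM in Atf4-/- ASNase. Alb was listed at 0 without an accepted estimate. Group scaling factors lay between 0.978 and 1.03, and no comparison shifted the median of all genes by more than 0.08 on the log2 scale.

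Acat1, the first enzyme of the pathway, was the most abundant gene of the set in every group and read lowest after ASNase in both knockouts. It measured 233 FPKM (27.5 to 439) in WT PBS and 174 FPKM (27.3 to 321) in WT ASNase. In Gcn2-/- mice it measured 240.0 FPKM (23.2 to 457) under PBS and 65.3 FPKM (12.0 to 119) under ASNase. In Atf4-/- mice it measured 161 FPKM (24.2 to 297) under PBS and 44.4 FPKM (9.75 to 79.0) under ASNase. All 15 pairs of groups overlapped, also where the values stood several fold apart. The interval reached 78.0% to 90.3% of the value to either side, whereas the median of genes of like abundance, from 30 FPKM up to 10 times that level, was 48.2% to 51.3%.

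Bdh1, which carries out the last step, was the gene of the set with the widest range of levels. It measured 178 FPKM (82.0 to 274) in WT PBS and 163 FPKM (72.3 to 253) in WT ASNase. In Gcn2-/- mice it measured 211 FPKM (97.0 to 324) under PBS and 45.3 FPKM (21.6 to 69.0) under ASNase. In Atf4-/- mice it measured 146 FPKM (59.6 to 232) under PBS and 4.48 FPKM (1.77 to 7.18) under ASNase. The highest group, Gcn2-/- PBS, stood 47.0-fold above the lowest, Atf4-/- ASNase. Among neighbours in the order of the 6 levels, 4 pairs overlapped and the separate pair was Gcn2-/- ASNase over Atf4-/- ASNase, so Atf4-/- ASNase stood below every other group.

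Bdh2 was expressed far below Bdh1 except in Atf4-/- ASNase, and its 6 groups came in the same order of level. It measured 13.3 FPKM (6.88 to 19.8) in WT PBS and 11.8 FPKM (5.94 to 17.7) in WT ASNase. Its Gcn2-/- values were 17.7 FPKM (9.58 to 25.8) under PBS and 3.41 FPKM (1.13 to 5.69) under ASNase. Its Atf4-/- values were 9.21 FPKM (4.43 to 14.0) under PBS and 1.93 FPKM (0.501 to 3.35) under ASNase. All 5 pairs of neighbours in this order overlapped, and the ASNase-treated knockouts could not be told from each other. Of the 15 pairs of groups, 7 were separate, each with an ASNase-treated knockout as the lower member.

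Aacs, the cytosolic enzyme, was lowest in Atf4-/- ASNase. It measured 21.6 FPKM (12.1 to 31.0) in WT PBS and 16.8 FPKM (8.76 to 24.9) in WT ASNase. The Gcn2-/- groups read 29.0 FPKM (15.6 to 42.4) under PBS and 11.9 FPKM (5.94 to 17.8) under ASNase. The Atf4-/- groups read 17.6 FPKM (9.64 to 25.6) under PBS and 4.78 FPKM (2.33 to 7.24) under ASNase. Atf4-/- ASNase was separate from all groups except Gcn2-/- ASNase, which gave 4 separate pairs of 15.

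Oxct1, the enzyme of ketone body use, was the least expressed gene of the set in every group, with intervals that reached 73.5% to 106% of the value upward. It measured 6.32 FPKM (1.67 to 10.96) in WT PBS and 9.69 FPKM (0.419 to 19.0) in WT ASNase. In Gcn2-/- mice it measured 1.75 FPKM (0.0877 to 3.41) under PBS and 1.27 FPKM (0.0301 to 2.51) under ASNase. In Atf4-/- mice it measured 3.09 FPKM (0.323 to 5.87) under PBS and 1.30 FPKM (0 to 2.69) under ASNase. All 15 pairs of groups overlapped, with the WT groups highest in value.

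**Figure D1:**
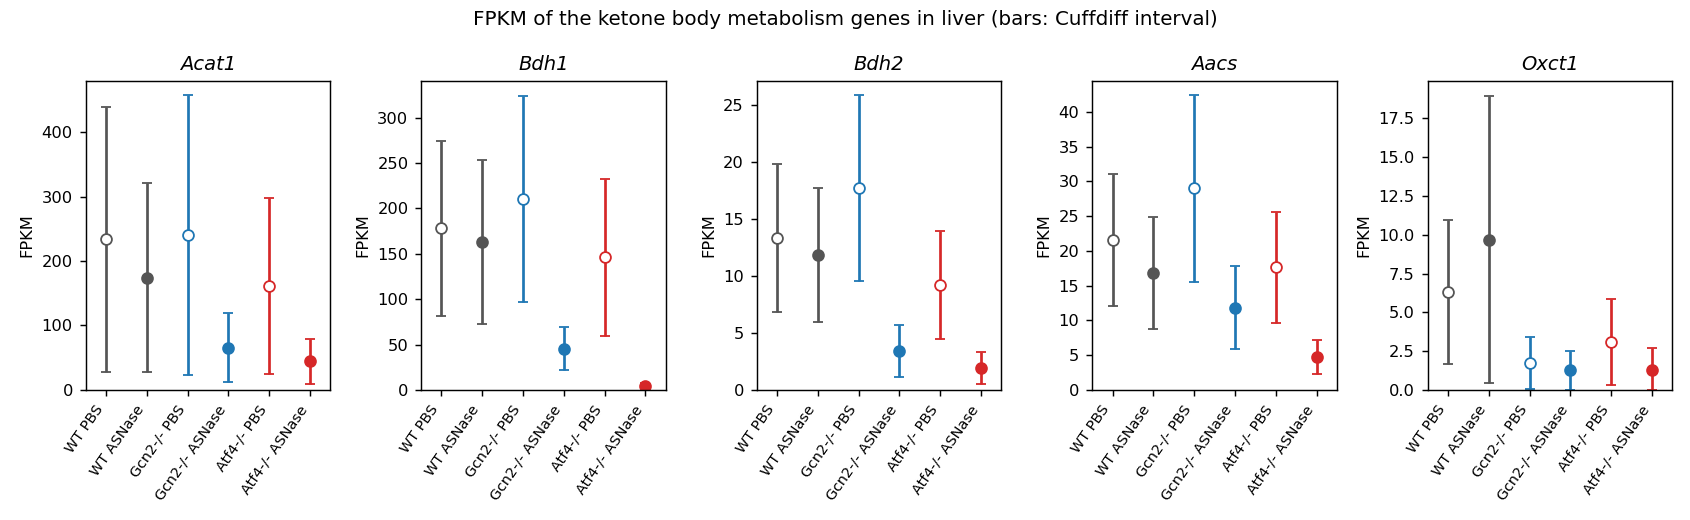
FPKM (linear axes from 0) of the 5 genes in the 6 groups, with open symbols for PBS, filled symbols for ASNase and bars for the Cuffdiff interval of each group value. Acat1, Bdh1, Bdh2 and Aacs were lowest in Atf4-/- ASNase, Bdh1 at 4.48 FPKM against 146 FPKM in Atf4-/- PBS, while Oxct1 was highest in the WT groups.

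The sequences before the starts of the 3 genes called lower in Atf4-/- ASNase are shown because these genes were lower together. Windows of 250 bases before a RefSeq start (GRCm38.p6) matched 4 of the 5 genes, with a pair of windows for Bdh1, and the printed sequences stop where the GENCODE gene begins. Capitals mark the letters TTGCNCAA on either strand, those of a C/EBP site, which were added to the search after the windows had been read.
Bdh1, chr16:31422047-31422279, plus strand: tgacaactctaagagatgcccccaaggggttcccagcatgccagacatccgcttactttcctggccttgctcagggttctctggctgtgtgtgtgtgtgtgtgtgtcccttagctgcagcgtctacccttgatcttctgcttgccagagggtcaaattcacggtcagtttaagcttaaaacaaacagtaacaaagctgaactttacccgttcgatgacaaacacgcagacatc
Bdh2, chr3:135280971-135281220, plus strand: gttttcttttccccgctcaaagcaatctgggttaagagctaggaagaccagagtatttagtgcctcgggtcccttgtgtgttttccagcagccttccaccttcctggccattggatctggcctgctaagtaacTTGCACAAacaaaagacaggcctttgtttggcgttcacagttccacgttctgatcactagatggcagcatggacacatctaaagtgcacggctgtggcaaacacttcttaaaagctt
Aacs, chr5:125475623-125475813, plus strand: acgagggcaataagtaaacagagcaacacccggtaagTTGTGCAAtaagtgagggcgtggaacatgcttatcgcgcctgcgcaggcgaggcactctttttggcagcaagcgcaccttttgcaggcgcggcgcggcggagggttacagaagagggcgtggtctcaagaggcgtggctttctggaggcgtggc

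The C/EBP letters occurred 117 to 110 bases before the RefSeq start of Bdh2 and, on the other strand, 213 to 206 bases before that of Aacs. They occurred in 2.61% of the 32851 windows of this length. Neither Bdh1 window held them. No window of the set held the ATF4 composite letters TGATGNAA (3.45% of windows), the sterol response element TCACNCCAC (1.05%), the E-box CACGTG (6.02%), the half-site AGGTCA (14.0%) or the direct repeat AGGTCANAGGTCA recognised by PPARalpha (0.0335%), searched on both strands, the direct repeat being made of half-sites. These matches describe the letters in these windows.

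In WT mice, ASNase left the set without a called change. The number of genes called was 0 of 5, where 0.881% of 9084 genes tested were called in either direction. The log2 differences (ASNase minus PBS) were -0.13 for Bdh1, -0.17 for Bdh2, -0.36 for Aacs, -0.42 for Acat1 and 0.61 for Oxct1, and the intervals overlapped for each gene. The combined error of these differences ran from 0.93 for Aacs to 1.76 for Acat1, and changes within it could not be resolved. Because a call needed the minimum log2 difference and separate intervals, changes larger than the error could also go uncalled. The absence of calls therefore does not exclude changes of that size.

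In Gcn2-/- mice, both dehydrogenase genes, Bdh1 and Bdh2, were called lower after ASNase. Of 4 genes that met the FPKM minimum, 2 were called lower, where 2.13% of 9218 genes tested were called lower. Bdh1 under ASNase was 21.5% of its PBS level (log2 difference -2.21, error 1.08) and Bdh2 was 19.2% (-2.34, error 1.15). These differences ranked 143 and 124 from the lowest of the genes tested. Acat1 differed by -1.88 and Aacs by -1.28 on the log2 scale with overlapping intervals. Oxct1, at 1.27 FPKM against 1.75 FPKM, was below the minimum.

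In Atf4-/- mice, Bdh1, Bdh2 and Aacs were called lower after ASNase, with the largest difference for Bdh1. The number called lower was 3 of 5, where 4.63% of 9485 genes tested were called lower. Bdh1 under ASNase was 3.07% of its PBS level (log2 difference -5.00, error 1.21) and ranked 38 from the lowest. Bdh2 was 20.9% of its PBS level (-2.20, error 1.26) and Aacs was 27.1% (-1.86, error 0.97), ranking 331 and 458. Acat1 was 27.6% of its PBS level (-1.85), a value like that of Aacs, but its intervals overlapped. Oxct1 differed by -1.19 and was not called. The median of the set was -1.86, beside 0.08 over all genes tested.

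**Figure D2:**
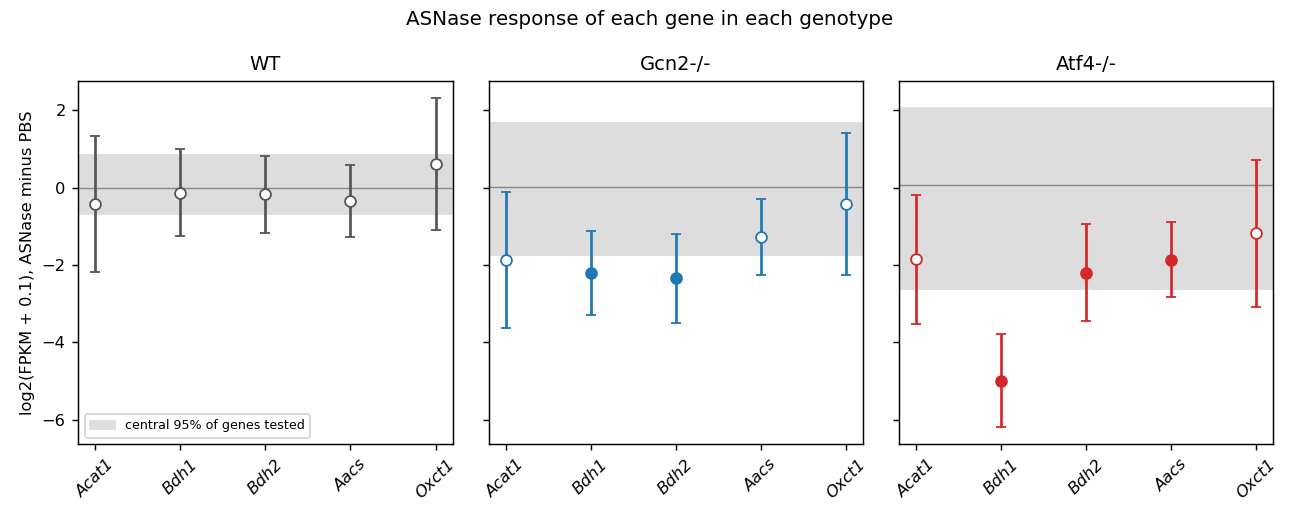
Difference of log2(FPKM + 0.1) between ASNase and PBS for each gene in WT, Gcn2-/- and Atf4-/- mice, with filled symbols for called genes, bars for the combined error of the pair of intervals and grey bands for the central 95% of genes tested. Every WT value lay within the band. In Gcn2-/- mice Bdh1 (-2.21), Bdh2 (-2.34) and Acat1 (-1.88, not called) lay below it, and in Atf4-/- mice Bdh1 (-5.00) did.

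The responses of the knockouts were set against the WT response by subtracting the log2 differences, with the limit that the result exceed 1.5 and the combined error of the 4 values. For Gcn2-/- minus WT, 2 of 5 genes were past the limit in the lower direction, Bdh1 at -2.08 (error 1.56) and Bdh2 at -2.17 (error 1.52), where 2.85% of 9523 genes were. For Atf4-/- minus WT, 3 of 5 genes were past it, Bdh1 at -4.87 (error 1.64), Bdh2 at -2.03 (error 1.60) and Aacs at -1.51 (error 1.35), where 5.05% of 9698 genes were. Aacs stood just past the limit of 1.5, and with a pseudocount of 1 it was at -1.35 and no longer past it, which left 2 genes. Acat1, at -1.43, was just short of the limit and within its error of 2.42. Both subtractions share the WT groups and are not independent of each other. The same subtraction between the knockouts, added after the values were seen, gave -2.78 (error 1.62) for Bdh1 and values within their error for the other genes, from -0.76 for Oxct1 to 0.14 for Bdh2.

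Without ASNase, the deletions left the set without a called difference. Gcn2-/- PBS against WT PBS gave 0 of 5 genes, where 1.04% of 8920 genes tested were called in either direction, and log2 differences between 0.04 and 0.43 for the genes other than Oxct1, which read lower, at -1.80 (error 1.66) with overlapping intervals. Atf4-/- PBS against WT PBS gave 0 of 5, where 1.12% of 9039 were called, and all 5 genes read lower, with -0.29 for Bdh1 and Aacs, -0.53 for Bdh2, -0.54 for Acat1 and -1.01 for Oxct1. Atf4-/- PBS against Gcn2-/- PBS gave 0 of 5, where 0.976% of 9015 were called. Bdh2 had the largest of these differences at -0.94 (error 0.99), 9.21 against 17.7 FPKM with overlapping intervals.

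Under ASNase, both knockouts were compared with the same WT group. Gcn2-/- ASNase gave 2 of 5 genes called lower, where 2.59% of 9423 were called lower, with Bdh1 at 27.8% of the WT level (-1.84) and Bdh2 at 28.8% (-1.77). Atf4-/- ASNase gave 3 of 5, where 5.66% of 9577 were called lower, with Bdh1 at 2.75% of the WT level (-5.15, rank 35 from the lowest), Bdh2 at 16.3% (-2.56) and Aacs at 28.4% (-1.79). Oxct1 read 1.27 and 1.30 FPKM in the knockouts against 9.69 FPKM in WT ASNase, log2 differences of -2.84 and -2.80, and was not called because the wide WT interval reached down to 0.419 FPKM. Between the knockouts, 1 of 4 genes that met the FPKM minimum was called lower in Atf4-/- ASNase, where 2.29% of 9355 were called lower. That gene was Bdh1, at 9.89% of its Gcn2-/- ASNase level (-3.31, error 1.14, rank 42). Bdh2, Acat1 and Aacs differed by -0.79, -0.56 and -1.29 with overlapping intervals, and Aacs exceeded the combined error of 1.02 without reaching the fold limit.

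Relative to the other genes of the set, Bdh1 was lowest in Atf4-/- ASNase. Bdh1 made up between 35.6% and 43.4% of the summed FPKM of the 5 genes in the other groups and 7.88% in Atf4-/- ASNase, where Acat1 made up 78.0%. The ratio of Bdh1 to Acat1 was 0.101 (error 0.0996) in Atf4-/- ASNase and between 0.693 and 0.936 elsewhere, with errors near the values themselves. Bdh2 amounted to 6.31% to 8.41% of Bdh1 in the other groups and to 43.0% (error 41.1) in Atf4-/- ASNase. The summed FPKM of the set changed from 453 under PBS to 375 under ASNase in WT mice, from 499 to 127 in Gcn2-/- mice and from 337 to 56.8 in Atf4-/- mice.

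Gene lists around the pathway are given by their calls and medians for the ASNase response. Over all genes tested, 2.13% were called lower in Gcn2-/- mice and 4.63% in Atf4-/- mice. Of the PPARalpha targets, genes of fatty acid oxidation, binding and storage under the receptor that also drives ketogenesis, with Angptl4, Pdk4 and Vnn1 among them, 2 of 13 tested were called lower by ASNase in Gcn2-/- mice and 6 of 13 in Atf4-/- mice, with medians of -1.26 and -1.95 beside 0.02 and 0.08 over all genes, while 0 of 14 were called in WT mice. Ehhadh, a peroxisomal oxidation enzyme, was lower by -2.48 and Acot1, an acyl-CoA thioesterase, by -2.46 in Gcn2-/- mice. Fabp1, the liver fatty acid binding protein, was lower by -7.35 and Acot1 by -4.51 in Atf4-/- mice. Thiolases other than Acat1 gave 1 of 7 called lower in Gcn2-/- mice and 2 of 7 in Atf4-/- mice, namely the peroxisomal Acaa1b in both (-4.31 and -7.40) and the mitochondrial Acaa2 in the latter (-2.50). Acat2, the cytosolic thiolase, ran from 31.1 FPKM in WT PBS to 8.17 FPKM in Atf4-/- ASNase, with -1.26 for ASNase in Atf4-/- mice. Acaa1b has a near-identical paralog, so its value is uncertain where reads could be split.

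SREBP2 targets, the genes of sterol synthesis to which Aacs is linked, had a median of -0.58 in WT mice. There 14 of 15 read below 0 and 0 were called. The median was 0.18 in Gcn2-/- mice with 0 of 15 called lower. It was -1.87 in Atf4-/- mice with 7 of 15 called lower. Aacs read -0.36, -1.28 and -1.86 in WT, Gcn2-/- and Atf4-/- mice. Idi1, an isoprenoid isomerase, was lower by -2.94 and Insig1, which retains SREBP in the endoplasmic reticulum, by -2.64 in Atf4-/- mice. Of 12 genes of amino acid breakdown to acetyl-CoA or acetoacetate, on part of which Acat1 also acts, 0 were called in any of the 9 comparisons. Their medians were -0.78 in Gcn2-/- mice and -0.72 in Atf4-/- mice. Among regulators of ketogenesis, Fgf21, a fasting hormone and known ATF4 target, was called higher by ASNase in WT mice (2.14 to 29.3 FPKM, log2 difference 3.71). It was called lower in Gcn2-/- mice (8.31 to 0.782 FPKM, -3.25). In Atf4-/- mice Fgf21 read 1.17 FPKM (0.126 to 2.22) under PBS and 3.50 FPKM (1.03 to 5.97) under ASNase. It was not called, because the intervals overlapped and the difference was just short of the log2 limit of 1.5. The other 4 genes tested were not called for ASNase in any genotype. Of these, Ppara, the gene of PPARalpha, read 43.8 FPKM (9.53 to 78.1) in Atf4-/- PBS and 8.52 FPKM (1.68 to 15.4) in Atf4-/- ASNase. Its log2 difference was -2.35, and it was not called because the intervals overlapped. The median of the list was -0.66 in Atf4-/- mice. Of 4 tested genes of monocarboxylate transport, by which ketone bodies cross the plasma membrane, 0 were called for ASNase in any genotype. Slc16a7 was lower in Atf4-/- ASNase than in WT ASNase, 9.37 against 28.0 FPKM (-1.57). Oxct2a and Oxct2b, the testis paralogs of Oxct1, read at or below 0.071 FPKM in every group.

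Levels of markers of cell types moved with the groups as well, and in whole liver, fewer cells of a type and less RNA per cell cannot be told apart. For hepatocytes, 0 of 10 tested markers were called for ASNase in Gcn2-/- mice, and 7 of 10 read below 0 (median -0.17). In Atf4-/- mice 1 of 10 was called lower, Fabp1, which is also a PPARalpha target, and 8 of 10 read below 0 (median -0.89). The 3 erythroid markers summed to 217, 126, 125, 10.9, 185 and 6.67 FPKM in WT PBS, WT ASNase, Gcn2-/- PBS, Gcn2-/- ASNase, Atf4-/- PBS and Atf4-/- ASNase, with 2 of 3 called lower by ASNase in each knockout. The 5 pancreatic acinar markers summed to 85.8 FPKM in Atf4-/- ASNase and to between 4.92 and 22.2 FPKM elsewhere. Of 6 Kupffer cell markers, Marco was called higher by ASNase in both knockouts (3.80 and 2.85) and Cd5l lower in Atf4-/- mice (-1.55), with medians of 0.13 and -1.11. The part of these shifts in the levels of Bdh1, Bdh2 and Aacs was not tested.

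For Oxct1, the markers of skeletal muscle, a tissue rich in this enzyme, stood out. The 15 markers summed to 1056 FPKM in WT PBS, 1489 FPKM in WT ASNase, 11.6 FPKM in Gcn2-/- PBS, 13.2 FPKM in Gcn2-/- ASNase, 89.7 FPKM in Atf4-/- PBS and 199 FPKM in Atf4-/- ASNase. All 15 read above 1 FPKM in both WT groups and 2 of 15 did in each Gcn2-/- group, where Ckm, the muscle creatine kinase, read 0.0215 and 0.0534 FPKM against 75.9 and 107 FPKM in WT. Oxct1 and this list were both highest in WT ASNase, then WT PBS, and both were low in Gcn2-/- ASNase. Oxct1 read lower in Atf4-/- ASNase than in Atf4-/- PBS, by a log2 difference of -1.19 within its error of 1.90 and with overlapping intervals. The muscle sum read higher there, with 0 of 12 tested markers called, so the direction of neither was resolved. Adipose markers summed to 12.5 and 9.35 FPKM in the WT groups and to at most 3.43 FPKM elsewhere, the 3 lung epithelium markers to 128 FPKM in WT PBS and at most 0.622 FPKM elsewhere, and cardiac markers to at most 1.63 FPKM in any group. Their part in the Oxct1 values was not tested.

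**Figure D3:**
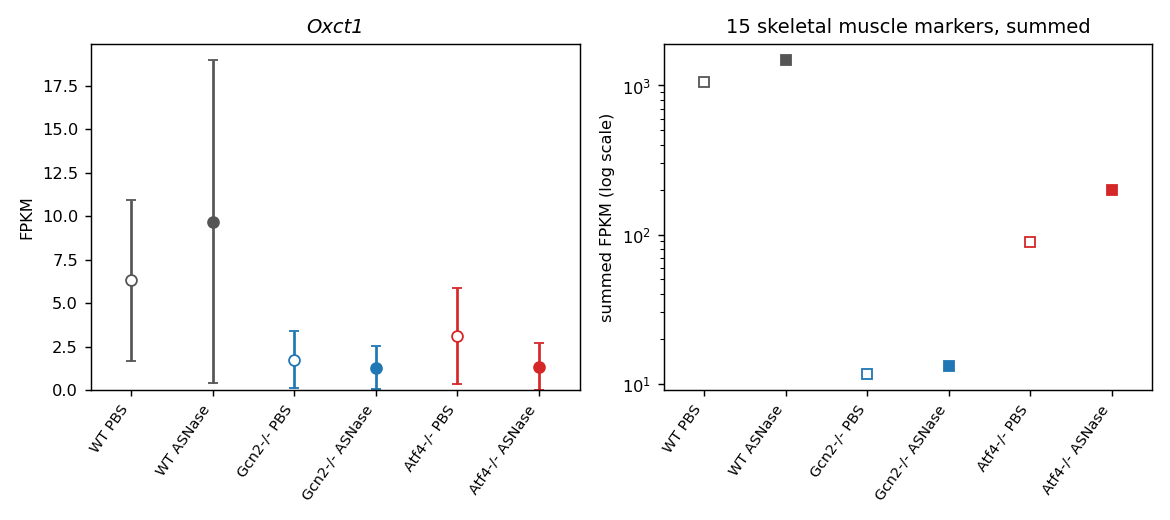
Left, FPKM of Oxct1 in the 6 groups with bars for the Cuffdiff interval (linear axis); right, summed FPKM of the 15 skeletal muscle markers (log axis). Both were highest in WT ASNase, at 9.69 and 1489 FPKM. From Atf4-/- PBS to Atf4-/- ASNase the marker sum read higher (89.7 and 199 FPKM) and Oxct1 lower (3.09 and 1.30 FPKM), with overlapping intervals for Oxct1.

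Other genes with the profile of each member were found by the root mean square difference of log2(FPKM + 0.1), centred on the mean of the 6 groups. For Bdh1 they were Rgn (0.22, Pearson r 0.99), Ces1d (0.26, r 0.99) and Ces3b (0.35, r 0.99) among 7608 genes, of which Rgn, the regucalcin gene, read 18.2 FPKM in Atf4-/- ASNase and 703 FPKM in Atf4-/- PBS. For Bdh2 they were 5033411D12Rik (0.14), Crot, a peroxisomal carnitine acyltransferase (0.16), and Zfp467 (0.21) among 10054 genes, all with r of at least 0.98. For Acat1 they were Nipsnap1 (0.10), Sc5d, a sterol desaturase (0.12), and 5033411D12Rik (0.14), each with r of 0.99 or above. For Aacs they were Rtn4 (0.075), Acot13 (0.080) and Mcee (0.089), each with r of 0.996 or above. For Oxct1 they were Gsn, an actin-severing protein (0.21, r 0.99), Neb, the giant protein of muscle thin filaments (0.37, r 0.97), and Pfkm, the muscle phosphofructokinase (0.41, r 0.93). Within the set, Acat1 and Bdh2 were closest (0.23, r 0.99) and Bdh1 and Oxct1 farthest apart (1.57, r 0.60). These likenesses rest on 6 group values, and r is given as a description.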

How the data were processed

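RNA-seq libraries of 18 livers, 3 in each of 6 groups, were described in 1 table. Per the labels and the methods, the authors mapped single-end reads with TopHat to the mm10 genome, assembled transcripts with Cufflinks and ran Cuffdiff, and the deposited values are FPKM with interval bounds and a status, 1 value per group from the 3 libraries together. Cuffdiff shares reads of multi-mapping fragments between genes, so paralogs carry more error. Every value column could be tied to its group, with 0 left over, and the table carries no counts, so the intervals alone give the precision.

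Groups came from the labels. Values were compared as log2(FPKM + 0.1) with Python 3.11.15 and pandas 2.3.3, after a check on simulated data. A linear model per library had been planned and could not be fitted. In its place a gene was tested when both values were accepted and above 0 and either was over 3 FPKM, and called when the log2 difference was over 1.5 and the intervals were apart. The error of a difference is the root of the summed squares of each interval's half-width over its value (plus 0.1), divided by the natural log of 2. The 5 members, the lists and the markers were chosen with earlier results of these data known. Named were all members and, for each, the 3 genes of most similar profile (FPKM over 3 in every group, or over 1 for Bdh2 and Oxct1). Also named were Acat2, Ppara and at most 4 list genes per comparison with separate intervals, largest difference first. Markers of cholangiocytes, stellate, endothelial and lymphoid cells, neutrophils and kidney are given among the other observations. The 9 comparisons were repeated under 9 alternatives and 1 more chosen after seeing the data. Some items of the pathway are not reported here. Libraries of a group may differ in ways its single value does not show.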

Additional observations from a re-analysis of the deposited data

How the results depend on the processing

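Of 96 alternative counts of members, 92 stayed within 1.5 times the reported count. Single log2 differences of the members kept their calls under pseudocounts of 1 and 0.01, a combined error in FPKM (root of the summed squared half-widths) in place of separate intervals, and median-ratio scaling. They also kept their direction, except that Acat1 for Gcn2-/- against WT under PBS went from 0.04 to -0.02 with median-ratio scaling. Leaving out the condition on the intervals moved 2 counts, from 0 to 1 gene for Gcn2-/- against WT under PBS (Oxct1) and from 3 to 5 genes for Atf4-/- against WT under ASNase (Acat1 and Oxct1 added). It also added Acat1 to the genes called for ASNase in Gcn2-/- mice, now 3, and in Atf4-/- mice, now 4, and Oxct1 to Gcn2-/- against WT under ASNase, now 3. A combined error on the log2 scale in place of separate intervals, an alternative chosen after seeing the data, gave the same 6 additions, with 1 gene for Gcn2-/- against WT under PBS and 5 for Atf4-/- against WT under ASNase. The Acat1 and Oxct1 calls thus depend on how the intervals are used. With a pseudocount of 1, the genes past the limit for the Atf4-/- minus the WT response fell from 3 to 2, without Aacs. With FPKM over 10 required, Bdh2 was no longer called for ASNase in Atf4-/- mice. No paired analysis was possible because the table holds 1 value per group and none per library, and for the same reason no replicate could be left out and no value tested against the spread between mice.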

Other observations

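The lipocalin list, added because Bdh2 has been linked to a siderophore that lipocalin 2 binds, held 1 gene over the FPKM minimum. Lcn2, the acute phase lipocalin, measured 10.1 FPKM in WT PBS, 10.5 FPKM in WT ASNase, 472 FPKM in Gcn2-/- PBS, 9990 FPKM in Gcn2-/- ASNase, 151 FPKM in Atf4-/- PBS and 8691 FPKM in Atf4-/- ASNase. It was called higher in Atf4-/- PBS than in WT PBS (log2 difference 3.88). The intervals of the ASNase-treated knockouts reached down to 0, so these high values were not called. Bdh2 was lowest in the same groups, at 3.41 and 1.93 FPKM, and so were Bdh1, Acat1 and Aacs. In Gcn2-/- PBS, Lcn2 read 472 FPKM, a log2 difference of 5.53 from WT PBS that was not called. Bdh2 had its highest value there, 17.7 FPKM, with an interval that overlapped that of WT PBS.

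Of the remaining marker lists, 5 endothelial markers summed to between 50.8 and 109.9 FPKM, 4 stellate markers, of which Des is also a muscle gene, to between 81.5 and 135 FPKM and 4 cholangiocyte markers to between 2.68 and 4.79 FPKM in the 6 groups. The 5 neutrophil markers summed to 1.36 FPKM in Gcn2-/- ASNase and to between 5.45 and 15.2 FPKM elsewhere, 4 lymphocyte markers to between 0.646 and 3.83 FPKM, and 3 kidney markers to at most 1.19 FPKM.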
